A study of Mus musculus with 188 samples.

Results

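The BXD strains are recombinant inbred lines derived from the parents C57BL/6J and DBA/2J, and in aorta they separated widely in the level of Cxcl14, a chemokine gene on chromosome 13. The groups were chosen by the measured level of Cxcl14, as the strain mean of the brighter of the 2 probe sets of the gene. A mean above 9.5 on the log2 scale made a strain Cxcl14-high and a mean below 8 made it Cxcl14-low. The high group held 14 strains with 26 arrays and the low group 11 strains with 19 arrays, together 45 of the 188 arrays of the series and 25 of its 28 BXD strains. The high strains were BXD20/TyJ, BXD33/TyJ, BXD6/TyJ, BXD12/TyJ, BXD27/TyJ, BXD24/TyJ-Cep290<rd16>/J, BXD21/TyJ, BXD2/TyJ, BXD36/TyJ, BXD28/TyJ, BXD9/TyJ, BXD14/TyJ, BXD13/TyJ and BXD39/TyJ, from the highest to the lowest mean. The low strains were, in the same order, BXD29-Tlr4<lps-2J>/J, BXD1/TyJ, BXD5/TyJ, BXD11/TyJ, BXD8/TyJ, BXD40/TyJ, BXD22/TyJ, BXD38/TyJ, BXD34/TyJ, BXD42/TyJ and BXD18/TyJ. BXD24/TyJ-Cep290<rd16>/J carries an allele of Cep290 in its name and BXD29-Tlr4<lps-2J>/J an allele of Tlr4, and the labels give both, like all other strains, the genotype wild-type. BXD15/TyJ and BXD19/TyJ lay between the thresholds, and BXD32/TyJ was left out for a suffix in its label that the sources do not explain.

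The series measured gene expression in whole aorta from 94 mouse strains with Affymetrix HT_MG-430A arrays, and values are log2 values from RMA, a summary of the probes of each probe set after background adjustment and quantile normalisation. All mice were males aged 16 weeks that were fed chow and received no treatment. Most BXD strains had 2 arrays, and 2 high and 3 low strains had 1. Nothing in the labels says that a strain's arrays were made from different animals, and the strain rather than the array was the replicate when groups were compared. A value on this scale has no absolute unit, and a difference of 1 corresponds to a doubling. The number of strains and arrays sets the precision of each comparison.

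CXCL14 is a secreted chemokine of the CXC family that is made at high levels by resting epithelia, such as skin, and by fibroblasts and adipose tissue. It attracts monocytes, immature dendritic cells and natural killer cells. In mice it is also released by brown adipose tissue, where it recruits macrophages of the alternatively activated type. Aorta here was collected with fat: across the 25 strains the strain means of the brown adipocyte gene Ucp1 lay between 12.29 and 13.02 and those of Adipoq, an adipocyte hormone, between 11.53 and 12.40. The smooth muscle actin gene Acta2 lay between 11.70 and 12.99 and the endothelial gene Pecam1 between 7.60 and 8.57, so defining markers of the vessel wall were present in every strain. In such bulk tissue, fewer cells of a type and less RNA per cell cannot be told apart.

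The arrays of BXD19/TyJ did not match each other. They had Cxcl14 values of 10.25 and 10.50 on replicates 1 and 2, and of 7.33 and 6.23 on replicates 3 and 4. Over 200 probe sets that mark strains, chosen after the data were seen, replicates 1 and 2 had a correlation of 0.983 and replicates 3 and 4 of 0.989, but between these pairs it was 0.726 to 0.778. Between the pairs 53 of the 200 probe sets differed by more than 1, against 5 in AXB19b/PgnJ and 4 in BXH4/TyJ, the other strains with 4 arrays. Among all other strains, replicates 1 and 2 were closest to DBA/2J, with correlations of 0.957 and 0.965. The arrays of BXD32/TyJ also stood apart: they had a correlation of 0.938 with each other and each of 0.9749 with C57BL/6J. BXD19/TyJ and BXD32/TyJ were in neither group, so no difference between the groups rests on them. In the high and low strains with at least 2 arrays, 0 of 24 high arrays and 0 of 16 low arrays were closer to another strain, and the lowest correlation within a strain was 0.959 in each group.

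Cxcl14 itself chose the groups, so its levels are a description without a test. For the brighter probe set the strain means of the high group had a lowest value of 9.73, a median of 10.47 and a highest value of 11.30. The low group had a lowest value of 5.78, a median of 7.31 and a highest value of 7.91. Just inside the thresholds were BXD39/TyJ at 9.73 and BXD29-Tlr4<lps-2J>/J at 7.91, and just outside were BXD19/TyJ at 8.58 and BXD15/TyJ at 8.44. The group means differed by 3.56, or 11.8-fold, with an SD over strains of 0.48 in the 14 high and 0.78 in the 11 low strains. The second probe set of the gene showed the same separation at lower values. It averaged 8.37 ± 0.57 in high strains and 5.66 ± 0.38 in low strains, a 6.53-fold difference. Its lowest high strain, at 7.40, was above its highest low strain, at 6.17. The 2 probe sets read the same arrays, so the second is not an independent measurement of the mice.

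The spread between arrays of a strain is given without a test. The SD of the brighter probe set within a strain had a median of 0.135 in the high group and 0.430 in the low group, and its maximum was 0.676 in BXD21/TyJ, a high strain, and 1.33 in the low strain BXD29-Tlr4<lps-2J>/J. The 2 arrays of BXD29-Tlr4<lps-2J>/J read 8.85 and 6.97, so 1 of them was above the threshold that made the strain low. No array of any other low strain was above 8, and the lowest array of a high strain read 9.73. Array numbers in the labels fall into 2 blocks, up to 1038 and from 1067 on. Within the first block the means were 10.33 in 5 high strains and 6.72 in 5 low strains, and within the second they were 10.69 in 9 high strains and 7.24 in 6 low strains.

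**Figure D1:**
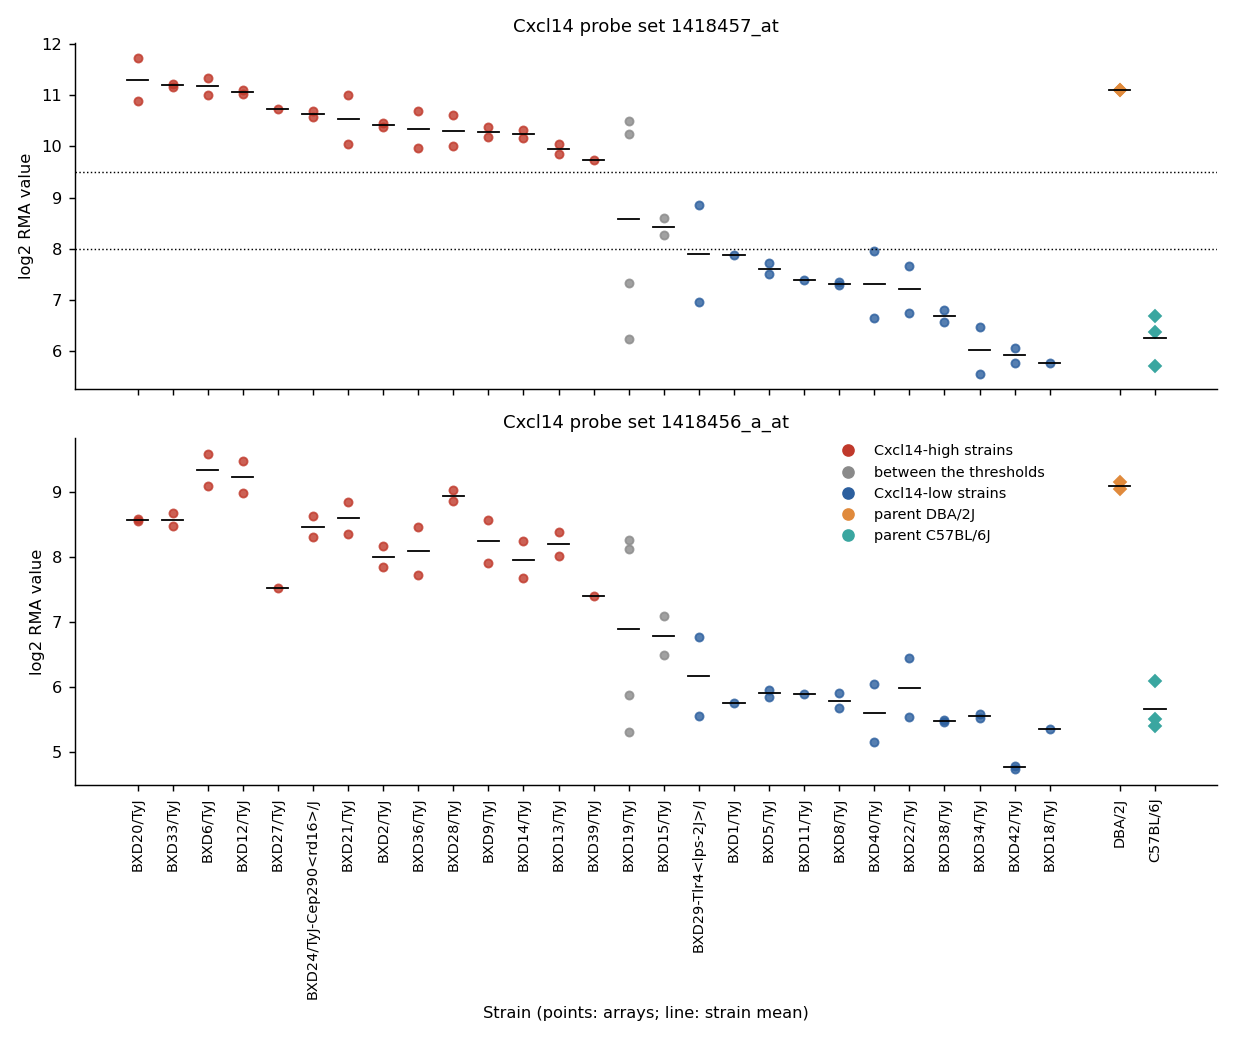
Log2 RMA values of the brighter (above) and the second (below) Cxcl14 probe set (y axis) by strain (x axis), with points for arrays and a line for the strain mean; dotted lines in the upper panel mark the thresholds of 9.5 and 8. High strains (red) and low strains (blue) do not overlap in strain means on either probe set, BXD19/TyJ is split into pairs of arrays, and the parents lie within the ranges of the groups, DBA/2J at 11.10 among the high strains and C57BL/6J at 6.27 among the low strains in the upper panel.

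The parental strains had not been used to form the groups and differed in the same gene. On the brighter probe set the arrays of DBA/2J read 11.09 and 11.10, and those of C57BL/6J read 5.72, 6.70 and 6.39. The difference was 4.83 with a standard error of 0.80, which passed limma's test in a fit of all strains (adjusted p = 2.21e-05 over 22327 probe sets). On the second probe set the parental means were 9.10 in DBA/2J and 5.67 in C57BL/6J, a difference of 3.43 (standard error 0.59, adjusted p = 5.30e-05). The call held without each parental array in turn and with the 5 parental arrays alone, where the adjusted p was 0.0269 and 0.0391 on the 2 probe sets. DBA/2J lay inside the range of the high strains and C57BL/6J inside that of the low strains on both probe sets.

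No strain mean of the other recombinant families was above 9.5. In the 28 AXB/BXA strains the means of the brighter probe set ran from 4.32 in BXA13/PgnJ to 9.33 in BXA16/PgnJ, 0 were above 9.5 and 21 were below 8. In the 10 BXH strains they ran from 5.31 to 7.97, so 10 of 10 were below 8. The further parents of these families were also low, A/J at 6.55 and C3H/HeJ at 6.88. Among the 28 inbred strains 8 were above 9.5: I/LnJ at 11.20, DBA/2J, NZW/LacJ at 10.76, SM/J at 10.59, PL/J at 10.32, LG/J at 10.09, 129X1/SvJ at 9.94 and BUB/BnJ at 9.88. Below 8 were 16 of the 28, and C58/J was lowest at 4.71. No BXD strain reached that low, and the lowest BXD strain, BXD18/TyJ, was at 5.78.

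The contrast of high and low strains was then run over all other probe sets, to see which genes differed with Cxcl14. Of 22325 probe sets, 3 passed limma's test on strain means at an adjusted p below 0.05 (0.0134%): 1 was higher in the high strains (0.00448%) and 2 were lower (0.00896%). At an unadjusted p below 0.05 there were 2015 (9.03%), of which 767 were higher (3.44%) and 1248 lower (5.59%). For 0 probe sets (0%) did the 2 groups of strains not overlap. The median size of a difference was 0.0702, and the 95% interval of a difference reached a median of 0.184 to each side.

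Fancc, which encodes a protein of the Fanconi anaemia complex that acts in the repair of DNA crosslinks, was lower in the high strains. It lies on chromosome 13, 37 measured genes after Cxcl14. Its probe set had a lowest value of 3.32, a median of 3.67 and a highest value of 3.89 in high strains, against 3.74, 4.14 and 4.60 in low strains. Of the 14 high strains 10 were below every low strain. The means were 3.63 ± 0.15 in high strains and 4.17 ± 0.28 in low strains, a difference of -0.54 (95% interval -0.71 to -0.36, adjusted p = 0.0321). In DBA/2J it read 3.52 and 3.82, and in C57BL/6J 4.37, 4.43 and 4.36, a difference of -0.71 in the direction of the BXD groups that did not pass the test (adjusted p = 0.478).

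Mtrr, which encodes methionine synthase reductase, an enzyme that keeps the cobalamin of methionine synthase active, was the gene that rose. It lies on the same side of Cxcl14, 54 measured genes away. Its probe set had a lowest value of 4.31, a median of 4.73 and a highest value of 4.98 in high strains, against 3.96, 4.22 and 4.51 in low strains. The groups overlapped, but 11 high strains were above every low strain. The means were 4.70 ± 0.23 in high strains and 4.21 ± 0.19 in low strains, a difference of 0.50 (95% interval 0.32 to 0.67, adjusted p = 0.0349). DBA/2J read 4.56 and 4.58 and C57BL/6J 3.498, 4.073 and 4.145. The parental difference of 0.66 ran the same way and did not pass the test (adjusted p = 0.796). Both Fancc and Mtrr were dim on these arrays, with means under 5, a level at which RMA values are near background.

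Ocel1, which encodes a protein with an occludin and ELL domain, lies on chromosome 8 and fell in the high strains. Its probe set had a lowest value of 5.10, a median of 5.44 and a highest value of 7.71 in high strains, against 6.21, 7.44 and 8.27 in low strains. Most of the high strains were at a low level of the gene, and 11 of 14 were below every low strain. BXD13/TyJ at 7.04, BXD9/TyJ at 7.25 and BXD24/TyJ-Cep290<rd16>/J at 7.71 were the high strains among the values of the low group. The means were 5.82 ± 0.85 in high strains and 7.45 ± 0.54 in low strains, a difference of -1.63 or 3.10-fold (95% interval -2.21 to -1.05, adjusted p = 0.0349). The parents differed the other way. DBA/2J read 8.28 and 7.48, and C57BL/6J read 6.41, 6.88 and 5.63, a difference of 1.57 (adjusted p = 0.149). For this gene 12 of the 14 high strains were nearer to the mean of C57BL/6J and 9 of the 11 low strains nearer to that of DBA/2J.

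All 3 calls were sensitive to single strains. When each of the 25 strains was left out in turn, 13 of the fits called 0 probe sets and 2 called all 3 genes. Fancc passed in 11 of the 25 fits, Mtrr in 7 and Ocel1 in 4. The size of the differences moved less: over all fits of 2 groups that were tried, that of Fancc lay between -0.60 and -0.48, that of Mtrr between 0.37 and 0.69 and that of Ocel1 between -1.90 and -1.44. With the probe sets under a mean of 5 left out, only Ocel1 passed. With the block of array numbers as a covariate Fancc passed (adjusted p = 0.0478), while Mtrr (adjusted p = 0.0568) and Ocel1 (adjusted p = 0.0603) did not. With BXD32/TyJ included Fancc and Mtrr passed and Ocel1 did not (adjusted p = 0.0675). Within array number block 1 and within block 2, limma's test passed 0 probe sets, with 1324 and 1472 at an unadjusted p below 0.05, and the 3 differences kept their direction in both. The blocks are parts of the strains in which the 3 genes were called, so this direction is no separate support.

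BXD15/TyJ and BXD32/TyJ, which the groups did not use, can be set beside these values. BXD15/TyJ, with intermediate Cxcl14, had 4.27 for Fancc, within the range of low strains, and 4.87 for Mtrr, within that of high strains only. BXD32/TyJ, whose arrays were closer to C57BL/6J than to each other, had a low Cxcl14 level of 6.84. It had 4.41 for Fancc and 4.10 for Mtrr, both within the ranges of low strains only. The 2 arrays of BXD32/TyJ read 7.71 and 5.05 for Ocel1, so that strain gave no single level. In BXD19/TyJ the pairs of arrays that stood far apart in Cxcl14 were alike in Fancc, at 3.84 and 3.90 against 3.85 and 3.83, and in Ocel1, at 7.20 and 7.38 against 7.20 and 7.26. In Mtrr the pair with more Cxcl14 was also higher, at 4.93 and 4.95 against 4.63 and 4.41.

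**Figure D2:**
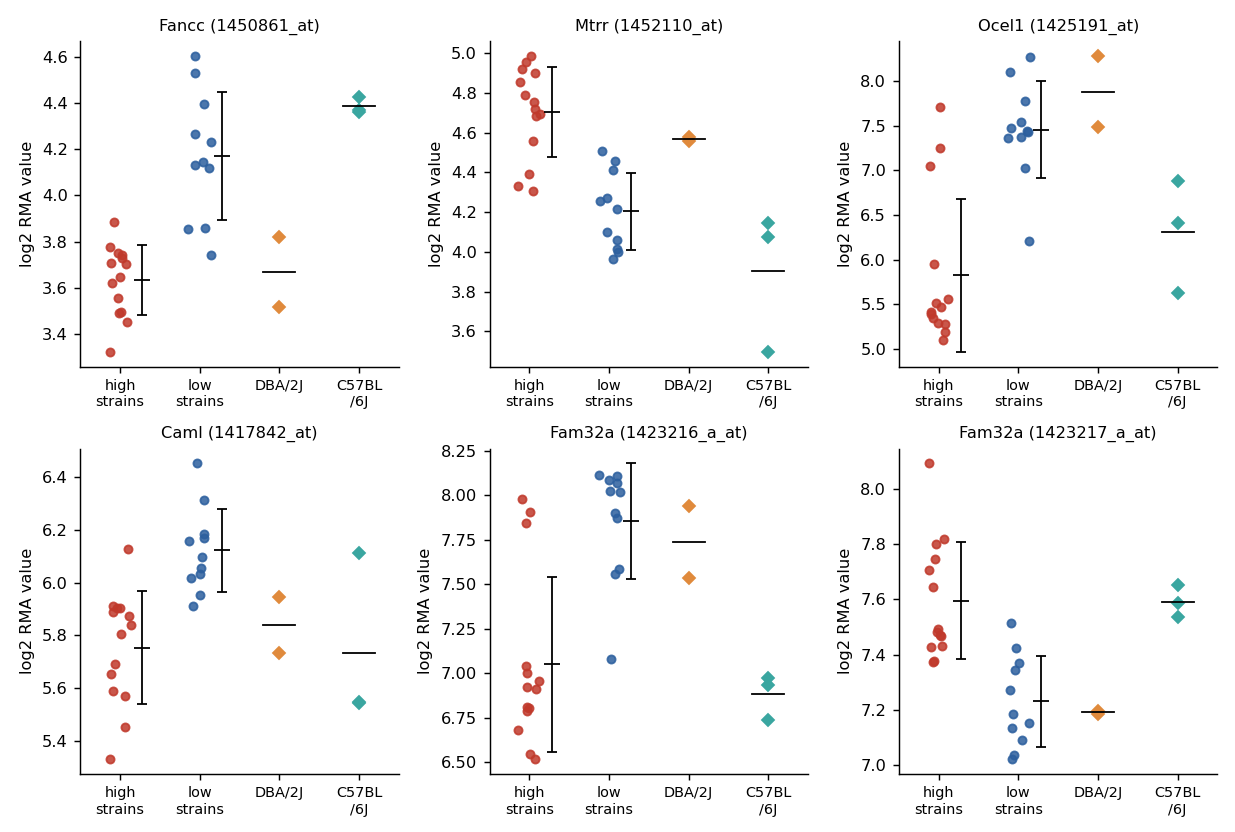
Log2 RMA values (y axis) of the 3 genes that passed the test (upper row) and of Caml and Fam32a, which did not (lower row), with 1 point per BXD strain, mean and SD beside the points, and 1 point per array with a line at the mean for the parents. Ocel1, both Fam32a probe sets and, with a small parental difference of 0.11, Caml run opposite ways in BXD strains and parents, while Fancc and Mtrr run the same way.

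The sequences before the starts of Cxcl14 and of the 3 called genes are shown because Cxcl14 formed the groups and the 3 genes passed the test between them. They are the 250 bases before the start that RefSeq annotates, in the direction of the gene, from build GRCm38.p6: chr13:56296552-56296801 on the minus strand for Cxcl14, chr13:63431746-63431995 on the minus strand for Fancc, chr13:68582170-68582419 on the minus strand for the first of 2 listed starts of Mtrr, and chr8:71371048-71371297 on the plus strand for Ocel1. Capitals mark matches on either strand to TATAAA, bound by the TATA-binding protein, to CCAAT, bound by the factor NF-Y, and to GGGCGG, bound by factors of the Sp family.
Cxcl14: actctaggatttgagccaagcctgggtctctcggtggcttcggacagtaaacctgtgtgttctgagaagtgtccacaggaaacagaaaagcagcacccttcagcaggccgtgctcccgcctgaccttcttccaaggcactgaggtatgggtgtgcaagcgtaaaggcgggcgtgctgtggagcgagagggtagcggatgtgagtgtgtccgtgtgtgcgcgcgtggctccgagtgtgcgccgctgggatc
Fancc: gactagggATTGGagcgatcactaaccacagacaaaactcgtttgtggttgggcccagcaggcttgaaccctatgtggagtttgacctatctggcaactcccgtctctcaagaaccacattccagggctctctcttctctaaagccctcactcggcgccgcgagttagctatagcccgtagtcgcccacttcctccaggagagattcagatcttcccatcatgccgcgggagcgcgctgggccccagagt
Mtrr: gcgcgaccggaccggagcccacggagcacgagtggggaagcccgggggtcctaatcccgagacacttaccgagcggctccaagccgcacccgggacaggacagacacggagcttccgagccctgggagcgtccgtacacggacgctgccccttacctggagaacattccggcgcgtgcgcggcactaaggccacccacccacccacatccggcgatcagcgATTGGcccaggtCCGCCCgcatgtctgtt
Ocel1: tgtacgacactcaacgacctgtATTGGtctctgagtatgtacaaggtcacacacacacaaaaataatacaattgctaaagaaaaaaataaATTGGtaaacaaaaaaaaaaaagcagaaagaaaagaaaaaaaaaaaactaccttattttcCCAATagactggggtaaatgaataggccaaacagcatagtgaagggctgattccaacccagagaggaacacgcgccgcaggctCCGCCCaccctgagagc

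These are sequences of the reference strain, C57BL/6J, and show no difference between strains. Cxcl14 had no match to any of the 3 motifs in this window. Fancc had 1 match to CCAAT, Mtrr 1 to CCAAT and 1 to GGGCGG, and Ocel1 3 to CCAAT and 1 to GGGCGG, and none of these overlapped. Of the 32851 windows of the same length before RefSeq starts, 12.4% held TATAAA, 33.8% CCAAT and 32.7% GGGCGG, so matches of this kind are common.

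The neighbourhood of Cxcl14 on chromosome 13 was read from the same fit. Chromosome 13 had 676 probe sets for 431 measured genes, and 2 of them passed the test, those of Fancc and Mtrr. At an unadjusted p below 0.05 the chromosome had 68 probe sets, 10.1% of its own, against 9.03% of all, and 4 other chromosomes had a larger share, chromosome 8 the largest with 12.8%. Among the 25 measured genes on each side of Cxcl14, with 90 probe sets, limma called 0, and 7 probe sets of 6 genes had an unadjusted p below 0.05 (7.78%). These genes, picked after their values were seen, were Rgs14, Caml, Macroh2a1, Slc28a3, Ntrk2 and Dapk1. The median size of a difference in this window was 0.0640.

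The nearest neighbours did not pass the test. Neurog1, a transcription factor gene of sensory neurons, differed by 0.01 and 0.06 on its 2 probe sets, the interleukin gene Il9 by -0.10 and Lect2, the gene of a hepatokine, by 0.03. Macroh2a1, which encodes a histone variant, averaged 8.49 ± 0.31 in high strains and 8.18 ± 0.20 in low strains (difference 0.31, unadjusted p = 0.00669, adjusted p = 0.489). Pitx1, a homeobox gene of the hindlimb, differed by 0.48 and 0.68 on its 2 probe sets (adjusted p = 0.612 and 0.609), with 3 of the 14 high strains above every low strain on each. Tgfbi, an extracellular matrix gene, differed by -0.18 and -0.13. Neurog1, Il9, Lect2 and Pitx1 were dim, with means under 5 in both groups, a level at which RMA values are near background. Their small or uncalled differences therefore cannot show whether these genes were unchanged beside Cxcl14. Macroh2a1 and Tgfbi had means above 5 in both groups.

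Caml, whose protein takes part in the insertion of tail-anchored proteins into the endoplasmic reticulum, lies 6 measured genes before Cxcl14 and was noticed after its values were seen. It had a lowest value of 5.33, a median of 5.82 and a highest value of 6.13 in high strains, against 5.91, 6.10 and 6.45 in low strains. Of the 14 high strains 13 were below every low strain, and 1 overlapped them. The difference of -0.37 (standard error 0.077) did not pass the test (adjusted p = 0.196), and the parents differed by 0.11 in the other direction. Ntrk2, the receptor of brain-derived neurotrophic factor, differed by -0.44 on its brighter probe set (adjusted p = 0.315) and by -0.15 between the parents. Farther away, 98 measured genes before Cxcl14 and also picked after its values were seen, Eci3, a peroxisomal isomerase gene, averaged 4.22 ± 0.60 in high strains and 5.24 ± 0.63 in low strains (difference -1.03, adjusted p = 0.315), and DBA/2J was 1.56 below C57BL/6J (adjusted p = 0.164).

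**Figure D3:**
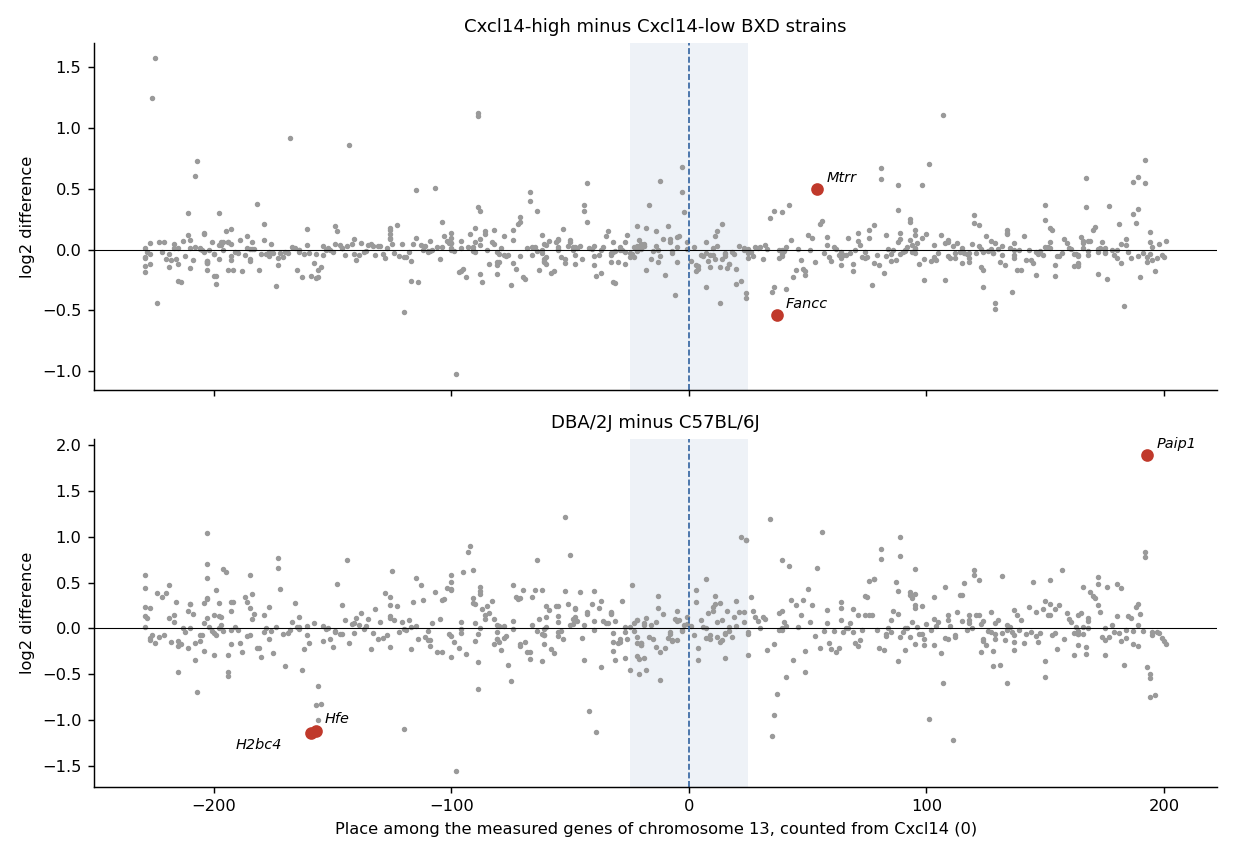
Differences in log2 value (y axes, on different scales) of the probe sets of chromosome 13 by the place of their gene counted from Cxcl14 (x axis), between high and low BXD strains (above) and between DBA/2J and C57BL/6J (below); red points passed the test, the dashed line marks Cxcl14 and the shaded band the 25 measured genes on each side. In the upper panel 2 probe sets passed, both outside the band, and in the lower panel 3 passed, at other genes; both probe sets of Cxcl14 are left out.

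Elsewhere in the genome, the differences with the smallest p values after the 3 calls were those of Fam32a, Caml, Cenpv, a centromere gene, a probe set without a gene name here, and Slc25a13, a mitochondrial carrier gene, all noticed after their values were seen. Cenpv differed by -0.54 and Slc25a13 by 0.62 (adjusted p = 0.196 for each). Fam32a lies on chromosome 8, 22 measured genes from Ocel1, and its 2 probe sets ran in opposite directions. The first averaged 7.05 ± 0.49 in high strains and 7.85 ± 0.32 in low strains (difference -0.80, adjusted p = 0.196). The second averaged 7.60 ± 0.21 in high strains and 7.23 ± 0.16 in low strains (difference 0.37, adjusted p = 0.196). The parents differed the other way on both, by 0.86 on the first, which passed the test (adjusted p = 0.0159), and by -0.40 on the second. That parental call was lost without replicate 2 of DBA/2J (adjusted p = 0.791), without replicate 1 of C57BL/6J (adjusted p = 0.132) and with the 5 parental arrays alone (adjusted p = 0.747). With BXD24/TyJ-Cep290<rd16>/J and BXD29-Tlr4<lps-2J>/J left out, 1 Fam32a probe set passed beside Ocel1, and Fancc and Mtrr did not.

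Between the parents 117 of 22327 probe sets passed the test (0.524%), and 1048 had an unadjusted p below 0.05 (4.69%). Of the 3 genes called between the BXD groups 0 were among the 117. Of the 115 other than Cxcl14, 3 were on chromosome 13, those of H2bc4, Hfe and Paip1, named after their values were seen, which are 157 or more measured genes from Cxcl14. H2bc4, a histone gene, differed by -1.14 between the parents and by -0.22 between the BXD groups (adjusted p = 0.582). Hfe, a regulator of iron uptake, differed by -1.12 and -0.24, and Paip1, whose protein binds the poly(A)-binding protein, by 1.89 and -0.10. Of the 115 probe sets 64 had the same sign in both comparisons, 55.7% of them, against 53.5% of all 22325. Between the BXD groups 20 of the 115 differed by more than 0.5 (17.4%), against 560 of all (2.51%), and the median size of a difference was 0.196 for the 115 and 0.0702 for all. These sizes take no account of the spread among strains, and none of the 115 passed limma's test between the BXD groups. H2-Ea differed by -0.50 with an SD of 3.30 in high and 3.07 in low strains (unadjusted p = 0.687). The first Fam32a probe set differed by -0.80 (unadjusted p = 4.94e-05).

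Whether Cxcl14 moved with other genes was also read in the AXB/BXA and BXH strains, which the groups did not use. Of 22325 probe sets 5 had a slope on the Cxcl14 level that passed the test (0.0224%), and 5 of 5 were positive, while 3129 had an unadjusted p below 0.05 (14%). Named after their values were seen, they were those of Cd59a, an inhibitor of complement, Srxn1, which encodes sulfiredoxin, Iscu, a scaffold of iron-sulfur cluster assembly, Letmd1, a mitochondrial protein of brown fat, and a probe set that has no gene name here. The slopes were 0.26 for Cd59a, 0.19 for Srxn1, 0.09 for Iscu, 0.18 for Letmd1 and 0.32 for the unnamed probe set per unit of Cxcl14. Between the high and low BXD strains Cd59a differed by 0.21 (adjusted p = 0.717), Srxn1 by -0.10, Iscu by -0.07 and Letmd1 by -0.01. The unnamed probe set differed by 0.31, with an unadjusted p of 1.06e-04 and an adjusted p of 0.237. The 3 genes called in the BXD strains did not pass here. The slopes were -0.02 for Fancc, 0.09 for Mtrr (adjusted p = 0.336) and 0.13 for Ocel1 (adjusted p = 0.456), and that of Ocel1 ran opposite to its difference between the BXD groups.

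Gene lists for what Cxcl14 is known to act on, and for other tissues, were read in the BXD contrast. The lists held 272 measured genes, and 0 of them passed the test. Among the 32 measured chemokine ligand genes the median difference was 0.02, with 2 higher and 0 lower at an unadjusted p below 0.05, against 458 higher and 715 lower of all 11724 genes, whose median was -0.01. Ccl25, a chemokine of the thymus and gut, differed by 0.85 (adjusted p = 0.547) and Cxcl9, a chemokine induced by interferon, by -0.59 (adjusted p = 0.639). Strain medians of Ccl25 were 3.64 in high and 3.64 in low strains, with an SD of 1.37 in high and 0.31 in low strains. The 17 chemokine receptor genes had a median of 0.03, with 1 higher and 1 lower at an unadjusted p below 0.05, and the smallest adjusted p among them was 0.491. Ccr9, the receptor of that thymic chemokine, differed by 1.23 (adjusted p = 0.553) and the decoy receptor gene Ackr3 by -0.18. Ccr9 is also on the thymocyte list, and its strain medians were 3.40 in high and 3.14 in low strains. Both Ccl25 and Ccr9 were dim, with means under 5 in both groups.

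The median of the macrophage genes was near 0 as well, while intervals of single genes were wide. The 15 macrophage genes had a median of 0.00 and a range of -0.24 to 0.48, and 0 had an unadjusted p below 0.05 in either direction. Laptm5, a lysosomal gene of leukocytes, differed by 0.48, C1qa, a complement gene, by -0.24 and Aif1 by 0.23. Of the 12 genes of alternatively activated macrophages 2 were lower at an unadjusted p below 0.05: Chil3, a chitinase-like secreted protein, by -0.56 and the lectin gene Mgl2 by -0.25 (adjusted p = 0.538 for each). Arg1, the arginase of these cells, differed by 0.42 (adjusted p = 0.813). The 10 genes of dendritic and natural killer cells had a median of 0.02, and Zbtb46, a factor of dendritic cells, differed by -0.24 (adjusted p = 0.491). Aif1, Chil3, Mgl2, Arg1 and Zbtb46 were dim, with means under 5 in both groups, a level at which RMA values are near background. Strain medians of Chil3 were 3.55 in high and 3.74 in low strains.

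No gene of the fat, vessel wall and signalling lists passed the test. The counts below can be set beside 458 higher and 715 lower of all 11724 genes at an unadjusted p below 0.05. The 8 brown adipocyte genes had a median of -0.06, 1 of them lower at an unadjusted p below 0.05, with Elovl3, a fatty acid elongase of brown fat, at 0.49 and the cytochrome oxidase subunit gene Cox8b at -0.12. The 11 adipocyte genes had a median of -0.16, 1 higher and 1 lower at an unadjusted p below 0.05, with the hormone gene Retn at -0.46 and the leptin gene Lep at 0.36. Lep was the only gene of this list that was higher in the high strains. It was dim, with means of 3.61 in high and 3.24 in low strains. The 13 contractile genes of smooth muscle had a median of 0.02 and the 13 genes of elastic fibres and collagen of 0.01, with Des, the muscle intermediate filament gene, at 0.52 and Mfap5, a microfibril gene, at -0.25. The 12 endothelial genes had a median of -0.15 and 2 were lower at an unadjusted p below 0.05, Cdh5 by -0.31 and Tie1 by -0.29, both genes of endothelial surface proteins (adjusted p = 0.531 and 0.545). The 17 genes of TGF-beta and BMP signalling had a median of -0.10, and 3 were lower at an unadjusted p below 0.05, among them Id3 at -0.29 and Smad1 at -0.26 (adjusted p = 0.533 and 0.513). The 10 glucose and insulin genes had a median of -0.06, with 2 lower at an unadjusted p below 0.05, and Fbp1, a gluconeogenic enzyme gene on chromosome 13, differed by -0.35 (adjusted p = 0.491). Fbp1 was dim, with means of 3.41 in high and 3.76 in low strains. The 14 clock genes had a median of -0.08, with the period gene Per1 at -0.64 (adjusted p = 0.513), and the 8 genes of adventitial fibroblasts a median of -0.08. Tlr4 and Cep290, the genes in the 2 allele names, differed by -0.10 and -0.01, and both were dim, with means under 5 in both groups.

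Medians of the remaining lists were 0.23 for 9 genes of skin and hair, 0.22 for 4 of Schwann cells, 0.10 for 10 of the interferon response, 0.05 for 9 of the MHC and -0.10 for 3 of erythroid cells. None of their genes passed limma's test, and 2 had an unadjusted p below 0.05, Lor, a gene of the cornified skin layer that is also on the list for squamous epithelium, and the myelin gene Mbp of Schwann cells, both higher. Of all 11724 genes 458 were higher at that level.

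Genes of tissues beside the aorta had the largest list medians, and they were spread widely among strains. The 12 squamous epithelium genes had a median of 1.65, and 9 were higher at an unadjusted p below 0.05. Krt4 and Krt13, keratins of the lining of the oesophagus, differed by 2.83 and 2.54 (adjusted p = 0.53 for each), and the SD of Krt4 over strains was 3.88 in the high and 1.49 in the low group. The 14 skeletal muscle genes had a median of 1.90, 8 of them higher at an unadjusted p below 0.05, with the fast troponin genes Tnnc2 at 2.44 and Tnnt3 at 2.31 (adjusted p = 0.545 for each). The 8 cardiac muscle genes had a median of 0.62 with none at an unadjusted p below 0.05. The 9 thymocyte genes had a median of 0.86, with Rag1, a recombinase of developing lymphocytes, at 1.22 (adjusted p = 0.559) and Dntt at 1.00 (adjusted p = 0.543), and the 10 lymphocyte genes 0.54, with Cd3g at 1.01 (adjusted p = 0.534). Strain medians lay closer, at 2.99 in high and 2.90 in low strains for Rag1 and at 3.22 and 3.12 for Dntt. For each of these 2 genes 5 of the 14 high strains were above every low strain. On each of these lists except cardiac muscle, between 4 and 9 genes were higher and 0 lower at an unadjusted p below 0.05. Of all 11724 genes 458 were higher and 715 lower at that level. Cd3d, Cd4 and Cd8a are on both the thymocyte and the lymphocyte list, and Cd4 and Cd8a count among the higher genes of both.

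The score of a list is the mean of its genes, each centred on its mean over all arrays. The squamous score of strains lay between -1.14 and 4.39 in the high group and between -1.24 and 1.39 in the low group. The skeletal muscle score lay between -3.47 and 3.13 in high strains and between -4.11 and 3.31 in low strains, and the thymocyte score between -0.99 and 2.41 in high strains and between -1.04 and 0.08 in low strains. Strain medians in high and low strains were -0.02 and -1.09 for the squamous score and 0.88 and -1.23 for the skeletal muscle score. They were -0.58 and -0.80 for the thymocyte score and 0.05 and 0.08 for the cardiac muscle score. Arrays with a squamous score above 1 were 9 of 26 in high strains and 2 of 19 in low strains, and with a thymocyte score above 1 they were 5 of 26 in high strains and 0 of 19 in low strains. The part of these tissues in the 3 calls was not tested beyond leaving arrays out and adding the scores as covariates. With the 3 scores as covariates limma called 0 (602 had an unadjusted p below 0.05), and with the arrays above 1 on the squamous or thymocyte score left out, which kept 10 high and 11 low strains, it also called 0 (1661).

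Cxcl14 without those arrays is again a description, since the strains had been split on this level. With arrays above 1 on the squamous or thymocyte score left out, the brighter probe set averaged 10.79 ± 0.32 in 10 high strains and 6.98 ± 0.83 in 11 low strains. With arrays above 1 on the skeletal muscle score left out too, it averaged 10.74 ± 0.32 in 6 high strains and 7.02 ± 0.73 in 10 low strains. The lowest high strain and the highest low strain were then at 10.37 and 7.91. Without those arrays the differences were -0.59 for Fancc, 0.69 for Mtrr and -1.61 for Ocel1, of the same direction and similar size as with all arrays, and none passed the test (adjusted p = 0.667, 0.228 and 0.228).

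**Figure D4:**
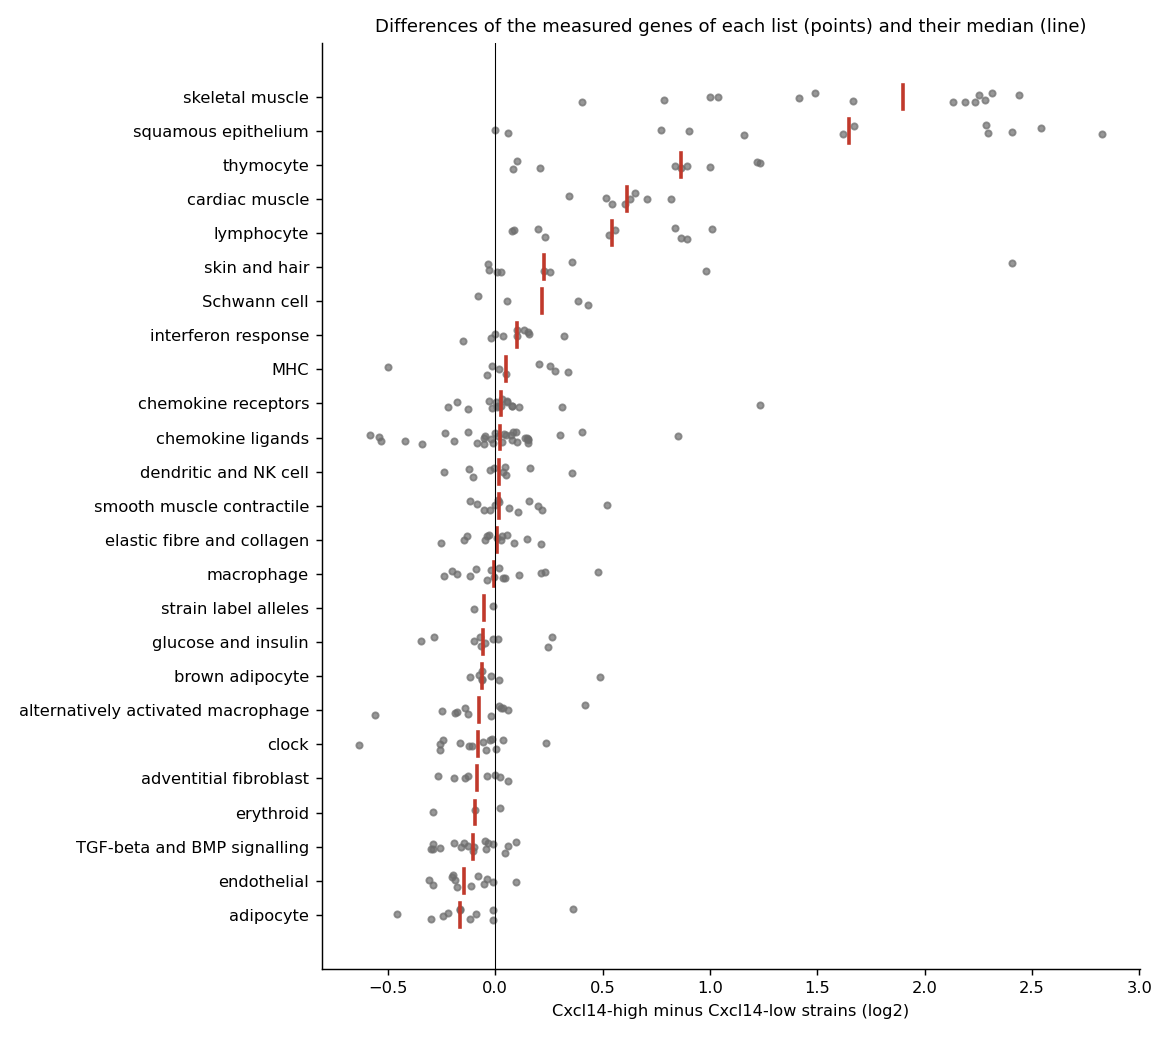
Differences in log2 value between high and low strains (x axis) of the measured genes of each list (grey points) with the median of the list (red line), lists ordered by median (y axis). Skeletal muscle at 1.90, squamous epithelium at 1.65 and thymocyte at 0.86 stand to the right, while the medians of the chemokine, macrophage, fat and vessel wall lists lie between -0.16 and 0.03.

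**Figure D5:**
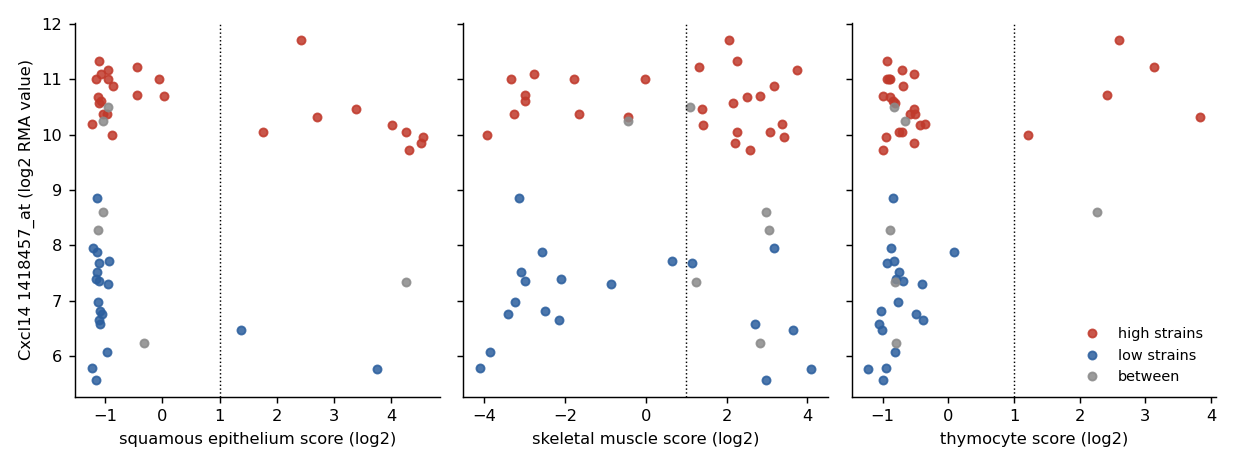
Log2 value of the brighter Cxcl14 probe set (y axis) against the squamous epithelium, skeletal muscle and thymocyte scores (x axes) of the same array, with points for arrays of high strains (red), low strains (blue) and the strains between (grey); the dotted line marks a score of 1. The y axis holds the level that split the strains, and the arrays above 1 on the thymocyte score include 5 of high strains and 0 of low strains, so the groups cannot be compared there.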

How the data were processed

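The deposited table gave 1 log2 value per probe set and array, which the authors made from HT_MG-430A arrays with GCOS and RMA, per the submitters' processing notes; their versions and the genome build were not given in the sources used here. It held 22416 probe sets. The 89 control probe sets were left out, and 22327 remained. Names came from the annotation of the array: 17783 had 1 symbol, 284 several and 4260 none listed. Gene order came from the RefSeq table of GRCm38.p6, and promoter sequences from RefSeq.

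Arrays were averaged per strain. limma 3.58.1 (lmFit and eBayes, in R 4.3.3) compared 14 high with 11 low strains, with Benjamini-Hochberg adjustment over 22325 probe sets, without those of Cxcl14. The parents were compared in a fit of all arrays with 1 mean per strain, without BXD32/TyJ (93 residual degrees of freedom). Slopes on Cxcl14 in AXB/BXA and BXH strains had family as a covariate. A list's gene was read by its brightest probe set. Named were Cxcl14, every called gene, the 6 nearest neighbours of Cxcl14, the most different members of each list and the genes of allele names; others are marked in the text as noticed later. The fits were tested on simulated data. The strains, lists and tests were chosen with earlier results of these data known. Alternatives covered the thresholds, strains, arrays, covariates, filters and eBayes settings; 4 were added after the data were seen, namely each array number block alone, the slope without BXD19/TyJ, and the removal of arrays high in skeletal muscle genes.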

Additional observations from a re-analysis of the deposited data

How the results depend on the processing

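The main count of 3 calls (2 on chromosome 13) moved with most settings, and the cause was not tested. It was 1 with thresholds of 9 and 8.5 (1 on chromosome 13), 0 with 10 and 7, which kept 12 high and 4 low strains, 1 without strains of 1 array (1 on chromosome 13), 2 without the strains with a further allele (0 on chromosome 13), and 6 with arrays as the unit and strain as a random block. It was 2 with BXD32/TyJ included, where Ocel1 was lost, 1 with a covariate for the block of array numbers, where Mtrr and Ocel1 were lost, 0 with the scores of squamous, skeletal muscle and thymocyte genes as covariates, 0 without arrays high in squamous or thymocyte genes, 1 (0 on chromosome 13) without dim probe sets, and 1 for a slope on Cxcl14 over all BXD strains. Among alternatives chosen after seeing the data, it was 0 in each array number block alone, 1 for the slope without BXD19/TyJ and 0 without arrays high in squamous, thymocyte or skeletal muscle genes. With 1 strain left out it ran from 0 to 5 (0 to 3 on chromosome 13), with 1584 to 2703 probe sets at an unadjusted p below 0.05; it was 0 without any 1 of BXD14/TyJ, BXD20/TyJ, BXD21/TyJ, BXD27/TyJ, BXD28/TyJ, BXD33/TyJ, BXD39/TyJ, BXD6/TyJ, BXD22/TyJ, BXD34/TyJ, BXD42/TyJ, BXD5/TyJ or BXD8/TyJ, and 5 without BXD24/TyJ-Cep290<rd16>/J. Fancc, Mtrr and Ocel1 kept their direction under each of the 41, 41 and 42 alternatives that gave them a value and passed in 20, 11 and 9. The 3 genes were picked by the main fit, and the alternatives reuse its arrays, 25 of them with 1 strain left out. Their kept direction is therefore no separate support. A window of 50 genes on each side of Cxcl14 held 1 call and windows of 10 and 25 held 0. The slopes called in AXB/BXA and BXH strains numbered 0 in AXB/BXA alone, 0 in BXH alone and 3 without dim probe sets. The 117 calls between the parents fell to 72 and 54 without 1 or the other DBA/2J array and to 20 with the 5 parental arrays alone. No called difference turned its sign, while uncalled differences did: 26 of 117 named values with the scores as covariates and 27 of 117 without arrays high in squamous, thymocyte or skeletal muscle genes. No paired analysis was possible because replicate numbers only count the arrays of a strain and pair no strains. Dim probe sets and 11 low strains limit what can be seen: a typical 95% interval reached 0.184 to each side.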
